A study of Danio rerio with 8 samples.

Results

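The genes elavl3 (ENSDARG00000014420), elavl4 (ENSDARG00000045639), snap25a (ENSDARG00000020609) and snap25b (ENSDARG00000058117), which are in general use as markers of neurons, were read out in single neurons of the zebrafish hindbrain. They were chosen by their Ensembl IDs and not by a rule on their values. Earlier results of these data were, however, known when they were chosen. They are 4 of the 37287 features in the deposited table. The reference table of gene names gives both snap25 IDs the symbol SNAP25, so the letters a and b follow the list of IDs by which the genes were chosen. The neurons lay in the CaD, a caudal hindbrain nucleus. They were filled from the spinal cord with dextran tetramethylrhodamine in larvae of the Tg(Glyt2:GFP) line, in which the promoter of the glycine transporter gene glyt2 (slc6a5) drives GFP, at 12 to 14 days post-fertilization. The content of single cells was collected with a patch pipette, and RNA was amplified with the SMART-Seq v4 kit and sequenced. There are 8 libraries in 1 group, labelled glycinergic neurons, and no group of other cells or treatment with which to compare them. The paper describes the method as single-cell sequencing, so each library is read here as 1 cell. The library titles give neither the number of cells nor the fish. For M1 this reading is in doubt, as described below.

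Elavl proteins, also called Hu proteins, bind AU-rich and U-rich stretches of RNA and govern the splicing, stability and translation of neuronal transcripts. In vertebrates elavl3 and elavl4 are expressed almost solely in neurons, whereas elavl1 is expressed in most cells. SNAP-25 is a membrane-bound SNARE protein of the nerve terminal that pairs with syntaxin and the vesicle protein synaptobrevin (VAMP) to drive the fusion of synaptic vesicles. The zebrafish carries a pair of snap25 genes, snap25a and snap25b, from the genome duplication at the base of the teleost fishes.

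Levels are FPKM, counted reads per kilobase of gene and per 1000000 counted reads, so that they can be compared between genes. The whole reads behind each value were recovered from the table. The 7 libraries other than M1 held 9861756 to 13761924 reads and M1 held 47723986. M1 stood apart. M11, M16 and M17 together had 10 or more reads on 17836 features. M1 held exactly as many reads as their sum at 7785 of these features, more at 9438 and fewer at 613. Its reads thus cannot be treated as independent of these libraries, and how the match arose was not tested. For the genes described here, M1 held 13529 reads on elavl3, against 13051 in M11, M16 and M17 together, 21707 against 19872 on elavl4, 31570 against 27833 on snap25a, and 1461 against 1459 on snap25b. Summaries below are therefore over the 7 libraries without M1, and the values with M1 are given beside them.

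The label of the cells was checked against marker genes. Of 8 IDs of neuron markers, which include the genes described here, 5 had an FPKM of at least 1 in all 7 libraries, beside 10% of all features. The 5 were elavl3, elavl4, snap25a and both IDs of STMN2, which encodes a growth-associated microtubule regulator. The defining glycinergic gene was near 0 in most cells. SLC6A5, the glycine transporter whose promoter drives the GFP of this line, had 83 reads and 1.22 FPKM in M11, but 9 reads in M9, 7 in M17, 5 in M6, 2 in M5 and 0 in M2 and M16. With 3 reads as the limit that a count of 0 allows, its level could have reached 0.0442 FPKM in M2 and 0.0574 FPKM in M16. SLC32A1, the vesicular transporter of glycine and GABA, reached 26.9 FPKM in M11, 5.64 FPKM in M17 and 2.95 FPKM in M6, and had at most 2 reads in the other 4 libraries. Neuronal transcripts were thus present in every cell. M2, M5 and M16 had at most 2 reads on each of the pair of glycinergic genes by which the label could be checked. M9 had 9 reads on SLC6A5 and 0 on SLC32A1. The paper reports markers of glycinergic transmission in its single-cell sequencing of CaD neurons. The glycinergic genes it used for this are not named in the sources used here. Myelin transcripts were abundant in every library, with a summed level of 4 oligodendrocyte or Schwann cell markers between 502 FPKM in M5 and 36572 FPKM in M2.

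Elavl3, elavl4 and snap25a were strongly expressed in every cell, and snap25b was not. The first 3 genes exceeded 100 FPKM in all 8 libraries, whereas snap25b reached at least 30 FPKM in M6, M11, M16 and M1 and stayed below 0.2 FPKM in M2, M5, M9 and M17. For comparison, 10% of all features had an FPKM of at least 1 in every one of the 7 libraries, and the count was nearly the same with M1 included.

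The elavl genes had like levels. Elavl3 had 283 FPKM in M16, 247 in M5, 227 in M9, 222 in M2, 213 in M6, 179 in M11 and 115 in M17, with 139 FPKM in M1. It was highest in M16 and lowest in M17, and the other 5 cells lay between 179 and 247 FPKM. Its mean was 212 ± 53.4 FPKM (SD, n = 7; median 222), and 203 ± 55.8 FPKM with M1 (SD, n = 8; median 217). Elavl4 had 270 FPKM in M5, 259 in M16, 240 in M11, 183 in M2, 174 in M9, 165 in M6 and 103 in M17, with 156 FPKM in M1. It was highest in M5 and again lowest in M17. Its mean was 199 ± 59.7 FPKM (SD, n = 7; median 183), and 194 ± 57.4 FPKM with M1 (SD, n = 8; median 179). Each of these values rested on at least 2680 reads, so that counting error was small beside the differences between cells. In M17, for instance, elavl3 had a 95% Poisson interval of 111 to 119 FPKM. Such intervals cover counting error only, since reads amplified without molecular identifiers are not independent molecules.

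Snap25a was the most abundant of the 4 genes in every library. It had 1329 FPKM in M6, 1235 in M5, 805 in M9, 795 in M11, 675 in M2, 479 in M16 and 405 in M17, with 464 FPKM in M1. M5 and M6 were the high cells and M16 and M17 the low cells. Its mean was 818 ± 352 FPKM (SD, n = 7; median 795), and 774 ± 349 FPKM with M1 (SD, n = 8; median 735). Within each of the 7 libraries it ranked between position 35 (M5) and position 64 (M16) among all detected features, whereas elavl3 ranked between 120 and 375 and elavl4 between 138 and 456. By the median over the 7 libraries, snap25a lay above 99.9% of the 27336 features with an FPKM above 0 in any of them, elavl3 above 99.4% and elavl4 above 99.2%.

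Snap25b was either well detected or all but absent. It had 91.2 FPKM from 1163 reads in M11, 77.5 FPKM from 1064 reads in M6 and 30 FPKM from 295 reads in M16. In the other cells it had 2 reads in M2, 2 in M9, 1 in M5 and 1 in M17, that is 0.157, 0.199, 0.0959 and 0.0878 FPKM. No cell lay between these levels: the lowest 95% Poisson limit among the cells with the gene was 26.7 FPKM in M16, and the highest limit among the others was 0.719 FPKM in M9. These limits, too, cover counting error only. The 1461 reads of M1 (30.7 FPKM) were close to the 1459 that M11, M16 and M17 had together. Because the cells fell so far apart, the median was unstable. It was 0.199 FPKM over the 7 libraries, but 15.1 FPKM with M1, and it was likewise 15.1 FPKM when any of M2, M5, M9 or M17 was left out. It was 0.178 FPKM when M6, M11 or M16 was left out. The mean was 28.5 ± 39.9 FPKM (SD, n = 7). A looser rule, with limits close to the values of snap25b itself, was applied to all features. A feature high in only 1 library also meets it, so it does not count the features with a gap like that of snap25b. Among the 3233 features whose highest FPKM was at least 30, 215 (6.65%), snap25b among them, had an FPKM below 1 in at least 4 of the 7 libraries, as did 158 (5.35%) of the 2955 with an Ensembl ID.

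**Figure D1:**
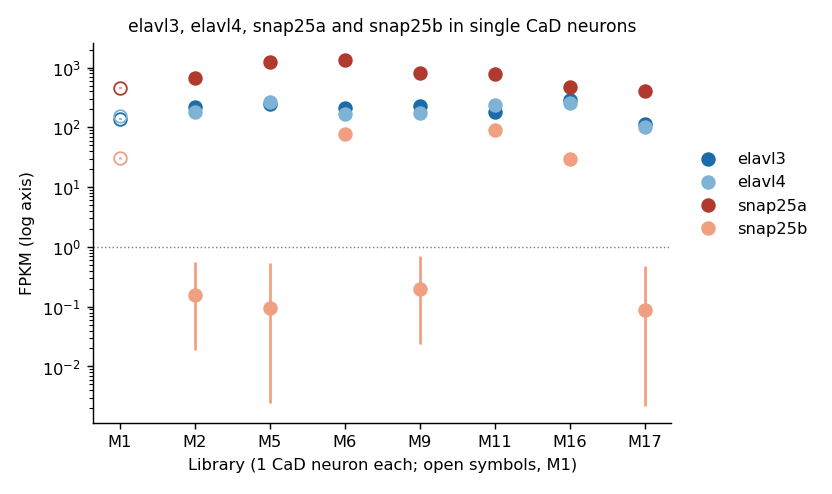
FPKM of elavl3, elavl4, snap25a and snap25b in each of the 8 libraries, on a log axis. Points are single cells, open symbols are M1, vertical lines are 95% Poisson intervals of the recovered reads (hidden by the points where reads are many), and the dotted line is an FPKM of 1. Elavl3, elavl4 and snap25a lie above 100 FPKM in every library, and snap25b lies at 30 to 91.2 FPKM in M6, M11 and M16 and below 0.2 FPKM in M2, M5, M9 and M17.

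To compare the genes within cells, the difference of log2(FPKM + 1) was taken in each library and tested with an exact two-sided sign-flip permutation test over libraries, with Benjamini-Hochberg adjustment over the 6 pairs of the 4 genes. With 7 libraries the smallest p that this test can give is 0.0156. Snap25a exceeded elavl3 in 7 of 7 cells, by 1.87 ± 0.60 on the log2 scale (SD; exact permutation adjusted p = 0.0188), and exceeded elavl4 in 7 of 7 cells, by 1.98 ± 0.63 (SD; exact permutation adjusted p = 0.0188). Snap25b was below elavl3 in all 7 cells, with a mean log2 difference of -5.05 ± 3.07 (SD), and below elavl4 in all 7 cells, with -4.94 ± 2.99 (SD; exact permutation adjusted p = 0.0188 for each). These comparisons kept their direction with M1 included (exact permutation adjusted p = 0.00938 for each). That smaller p counts M1 as a further cell, although its reads cannot be treated as independent of M11, M16 and M17. The smaller p thus adds no support. In M11, where snap25b was highest, it still lay 0.96 below elavl3 on the log2 scale.

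The paralogs of snap25 were far from balanced. Snap25a exceeded snap25b in 7 of 7 cells, with a mean log2 difference of 6.92 ± 3.05 (SD, n = 7; exact permutation adjusted p = 0.0188), and in 8 of 8 libraries with M1, by 6.54 ± 3.02 (SD, n = 8; exact permutation adjusted p = 0.00938). The test with M1 again counts as a further cell a library that cannot be treated as independent. Where snap25b was detected, snap25a was 8.71 times as abundant in M11 (95% exact binomial interval 8.21 to 9.26), 16 times in M16 (14.2 to 18.0) and 17.1 times in M6 (16.1 to 18.2), and 15.1 times in M1. The interval of M11 lay apart from those of M6 and M16, which overlapped each other. These intervals cover the counting of amplified reads only, so they are not a test of a difference between cells. In the other cells the ratio rested on 1 or 2 reads of snap25b and was known only roughly: it was 4048 in M9 (1120 to 33428), 4310 in M2, 4614 in M17 and 12883 in M5. Snap25a made up 89.7% of the summed FPKM of the pair in M11, 94.1% in M16 and 94.5% in M6, and between 99.975% and 99.992% in the other 4 cells. The median share was 99.98% over 7 libraries and 97.2% with M1. The 3 libraries with both genes at an FPKM of at least 1 gave a smaller mean log2 difference of 3.71, and with 3 libraries the test could not pass the threshold (exact permutation adjusted p = 0.3). Reads that match both paralogs could have been assigned to either, since how the authors' counting treated such reads is not given in the sources used here. Whether the 1 or 2 reads on snap25b in M2, M5, M9 and M17 came from the far more abundant snap25a was not tested.

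By FPKM the paralogs of the Elavl pair had like levels on average and differed in direction between cells. By reads elavl4 was higher in every library, and elavl3 held 34.3% of the reads of the pair in M11 and 47.7% in M9. The direction by FPKM thus rests on the recovered lengths, 2042 bases for elavl3 and 2921 for elavl4. Elavl3 was higher in 5 of 7 cells, by 0.11 ± 0.29 on the log2 scale (SD, n = 7), and the difference did not pass the test (exact permutation p = 0.359, adjusted p = 0.359). The cells ranged from -0.42 in M11 to 0.38 in M9. Leaving out 1 library at a time gave means from 0.06 (without M9) to 0.20 (without M11). The exact permutation adjusted p was 0.0625 without M11, and between 0.281 and 0.594 without each other library. With so few cells, a small difference is not excluded. With M1, which leaned towards elavl4, the mean was 0.07 ± 0.29 (SD, n = 8; exact permutation adjusted p = 0.492). In each of the 8 libraries the exact binomial interval of the FPKM ratio excluded equal levels. These intervals cover the counting of reads only, and amplified reads are not independent molecules, so small imbalances may lie within the sampling of molecules. The ratio of elavl3 to elavl4 was 1.31 in M9 (95% exact binomial interval 1.25 to 1.36), 1.29 in M6 (1.24 to 1.33) and 1.21 in M2 (1.17 to 1.25), against 0.745 in M11 (0.719 to 0.772) and 0.915 in M5 (0.884 to 0.948). M16 and M17 leaned slightly towards elavl3, with ratios of 1.09 and 1.11. As a share of the summed FPKM of the pair, elavl3 took 51.9 ± 5.03% (SD, n = 7), from 42.7% in M11 to 56.6% in M9.

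**Figure D2:**
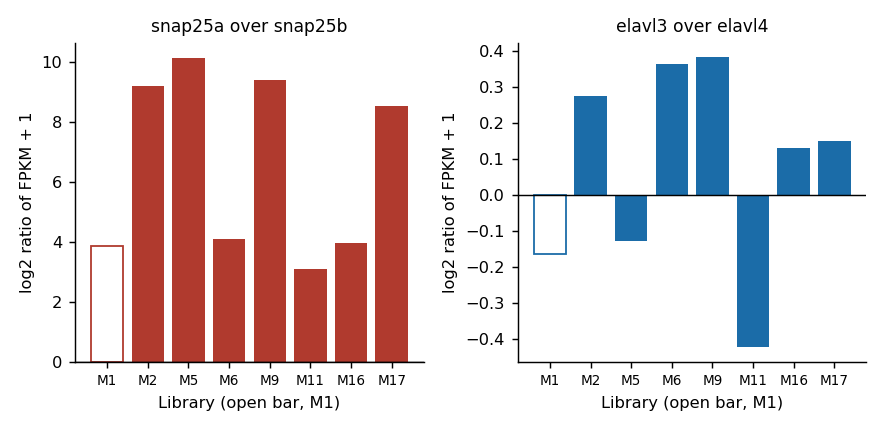
Log2 ratio of FPKM + 1 within each library for snap25a over snap25b (left) and elavl3 over elavl4 (right), with a separate axis for each pair. Bars are single cells, and the open bar is M1. Snap25a exceeds snap25b in every library, by 3.11 in M11 and by 10.1 in M5, while the bars of the Elavl pair fall on both sides of 0, between -0.42 and 0.38.

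The same pairs dominated their gene families. Of 5 elavl IDs, elavl3 and elavl4 together made up 82.1% (M11) to 95.3% (M16) of the summed FPKM in the 7 cells. The rest was elavl1, whose protein HuR acts in most cell types. The ID with the symbol ELAVL1 (ENSDARG00000101744) had 77.5 FPKM in M11 and 69.3 FPKM in M6, and between 16.9 and 33.7 FPKM in the other 5 cells, and elavl1a had 0.199 to 13.9 FPKM. ELAVL2, which encodes a further neuronal Elavl protein, was listed at 0 in all 8 libraries. Of 6 IDs of the SNAP-25 family, snap25a alone made up 87.7% (M11) to 99.9% (M2) of the summed FPKM. The members with wider roles in membrane fusion added between 0.0793% (M2) and 2.19% (M11). SNAP29 reached 15.4 FPKM in M5, SNAP47 reached 7.83 FPKM in M11, and snap23.1, the SNARE of non-neuronal secretion in mammals, reached 9.0 FPKM in M6 and had 0 reads in M2, M5, M9 and M16. Snap23.2 had 3 reads in M5 and 0 in the other 7 libraries. In the cells with snap25b all but absent, no other member of the family rose to the level of snap25a or the Elavl genes.

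The spread between cells was small for elavl3, elavl4 and snap25a and very large for snap25b. The SD of log2(FPKM + 1) over 7 cells was 0.42 for elavl3, 0.48 for elavl4 and 0.64 for snap25a, and 3.11 for snap25b. Its median over the 9784 features with a median FPKM of at least 1 was 1.14. Of these features, 98.6% had a larger SD than elavl3, 97.2% a larger SD than elavl4, 91.0% a larger SD than snap25a and 0.133% a larger SD than snap25b. Snap25b, with a median of 0.199 FPKM, is not itself among these features. The limit also leaves out other features below 1 FPKM in most cells, so the 0.133% is not a comparison with features like snap25b. Highly expressed features vary less in general, so the genes were also set beside features within 2-fold of their own median level. Elavl3 had a smaller SD than all but 4.98% of 281 such features, elavl4 than all but 8.06% of 335, and snap25a than all but 30.2% of 63. Of 1957 features within 2-fold of the median of snap25b, 99.9% had a smaller SD than it, but that median was unstable. Between the highest and the lowest cell, elavl3 differed 2.46-fold, elavl4 2.61-fold and snap25a 3.28-fold. The highest snap25b level was 1039 times the lowest, which rested on 1 read. M17, the lowest cell for both Elavl genes, supplied much of their spread: without it the SD was 0.22 for elavl3, in place of 0.42, with 99.7% of features above it, and 0.31 for elavl4, in place of 0.48, with 99.0% of features above it. With M1 included the SDs were 0.43, 0.46, 0.64 and 3.0.

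**Figure D3:**
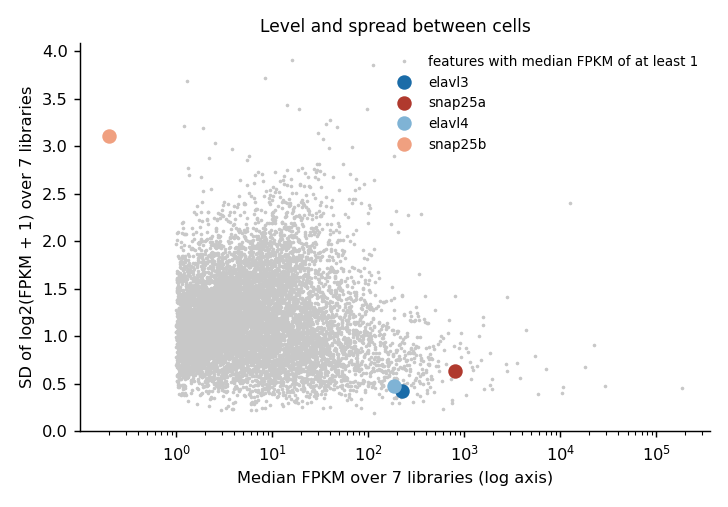
SD of log2(FPKM + 1) over 7 libraries against the median FPKM on a log axis, for each feature with a median FPKM of at least 1 (grey) and for elavl3, elavl4, snap25a and snap25b (coloured). Elavl3 (0.42), elavl4 (0.48) and snap25a (0.64) lie below the median SD of 1.14, and snap25b (3.11) lies far above it at a median FPKM of 0.199.

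The level of snap25a moved with the composition of the libraries. A single feature, ENSDARG00000080337, to which the reference tables used here give no name, took 21.8% of all reads in M6 and 56.8% in M17, which lowers the FPKM of every other feature in a library where its share is high. With this feature left out and the rest rescaled to the same sum, M17 was no longer the lowest cell for the Elavl genes: M11 was lowest for elavl3 and M6 for elavl4. The SD of snap25a fell to 0.46, against 0.64 before, and its fold range to 2.24, whereas the SD was 0.41 for elavl3, against 0.42 before, and 0.43 for elavl4, against 0.48 before. The share of reads on that feature and the log2 level of snap25a had a Pearson r of -0.93 and a Spearman rho of -0.96 over 7 cells, and r was -0.84 without the 2 cells farthest from the median. After the feature was left out r was still -0.80, so rescaling removed only part of this relation. The same share had an r of -0.52 with elavl3, which was 0.13 without the 2 farthest cells, and 0.02 once the feature was left out. Elavl3 and elavl4 moved together across cells, with r = 0.80 and rho = 0.71, but this depended on the scaling and on the extreme cells: r was -0.006 without the 2 cells farthest from the median. With the highest feature left out, r was 0.76 and rho 0.57, and r was 0.91 without the 2 farthest cells. Snap25a and snap25b had r = 0.20 and rho = 0.36. These correlations are descriptions over 7 cells, whose values share the depth and scaling of their library, and no test was made. The level of snap25a also moved with the oligodendrocyte or Schwann cell markers (r = -0.79, and -0.18 without the 2 farthest cells) and with the number of features at an FPKM of at least 1 (r = 0.83, and 0.55 without them), which ran from 7224 in M17 to 13643 in M6. The part of these in the level of snap25a was not tested.

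Snap25b moved with some marker genes and not with others. The 7 IDs of radial glia or astroglia markers summed to 10385 FPKM in M11, 3074 FPKM in M6 and 1213 FPKM in M16, where snap25b was detected, and to 536 FPKM in M2, 402 in M5, 183 in M17 and 105 in M9. Of these IDs, 6 reached an FPKM of at least 1 in M11 and M6, 5 in M16, M2 and M5, 3 in M9 and 2 in M17, and 1 ID of SLC1A2 was at 0 in all 7. FABP7 and GLUL made up most of the sum. The defining gene GFAP did not follow the order of snap25b: it had 24.2 FPKM in M11, 11.5 in M16 and 9.79 in M6, but 12.5 FPKM in M2, and 5.46 FPKM or less in the other 3 cells. The main ID of GLUL, glutamine synthetase, had 1190 FPKM in M11, 897 FPKM in M6 and 555 FPKM in M16, and between 4.29 and 183 FPKM in the other 4 cells. The 3 IDs of GAD1 and GAD2, which encode the enzymes that make GABA, summed to 114 FPKM in M11, 25.2 FPKM in M6 and 20.1 FPKM in M16, and to 1.61 FPKM at most in the other 4. Over 7 cells the log2 level of snap25b had r = 0.90 and rho = 0.79 with the radial glia or astroglia sum and r = 0.96 and rho = 0.79 with the GABAergic sum, and r = 0.73 and 0.97 without the 2 farthest cells. Of 5 IDs of microglia markers, 2 IDs of MPEG1 were at 0 in all 8 libraries. The sum of the 5 was 250 FPKM in M16, 115 in M6 and 62.3 in M11, and 20.5 FPKM or less in the other cells, but apoeb, which is not restricted to microglia, made up most of it, with 61.9 FPKM in M11. The remaining MPEG1 ID had 23.08 FPKM in M16 and 11.3 FPKM in M6, but 0.362 FPKM in M11, where csf1ra had 1 read. The oligodendrocyte or Schwann cell sum, the highest of the non-neuronal sums in 6 of the 7 cells, had r = -0.008 and rho = 0.07 with snap25b. The glycinergic markers followed snap25b less closely than the GABAergic markers, with r = 0.54 and rho = 0.43, and r = 0.72 without the 2 farthest cells. Their sum was highest in M11, at 28.2 FPKM, as snap25b was. But it was 0.0580 FPKM in M16, which had snap25b, and 5.75 FPKM in M17, which did not. The microglia sum had r = 0.86 and rho = 0.50, and r = 0.90 without the 2 farthest cells. For the glutamatergic markers, IDs of SLC17A6, these values were 0.75, 0.46 and -0.29. The neuron marker gap43, picked after its values were seen, had 174 FPKM in M11, 49.4 in M16 and 23.7 in M6. It had 9.87 FPKM or less in the other 4 cells. Other neuron markers did not follow snap25b. SYT1 had 0.968 FPKM in M16 and 4.12 FPKM in M5, and both IDs of STMN2 were lowest in M16, at 179 and 13.2 FPKM. The part of RNA from other cells in the snap25b level was not tested. Total reads had r = 0.44 and rho = 0.21 with snap25b, and M16, with 295 reads of the gene, was the shallowest library. The number of features at an FPKM of at least 1 had r = 0.65 and rho = 0.71 with snap25b, and r = 0.43 without the 2 farthest cells. The part of these in the snap25b level was not tested.

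**Figure D4:**
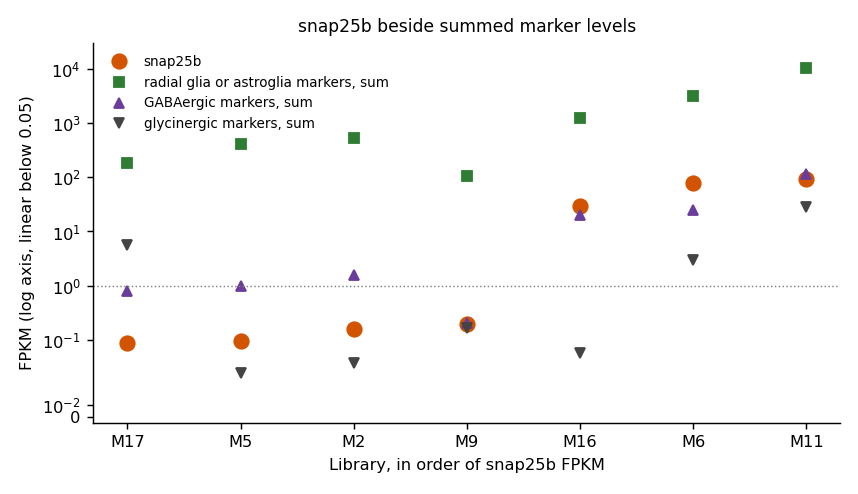
FPKM of snap25b in 7 libraries, in order of its level, beside the summed FPKM of the radial glia or astroglia, GABAergic and glycinergic markers in the same library. The vertical axis is logarithmic above 0.05 and linear below, each symbol is 1 library, and the dotted line is an FPKM of 1. The radial glia or astroglia sum (1213 to 10385 FPKM) and the GABAergic sum (20.1 to 114 FPKM) are highest in M16, M6 and M11, where snap25b is 30 to 91.2 FPKM.

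The 4 genes were then placed among other neuronal genes. From a list of 41 genes in use as pan-neuronal markers, 39 IDs were found, and 25 of them (64.1%) had an FPKM of at least 1 in all 7 cells, beside 10% of all features. By median FPKM snap25a stood at position 5, elavl3 at 12 and elavl4 at 14 of the 39. The top of the list was held by neurofilament genes, with median levels of 22409 FPKM for nefla, 17924 FPKM for nefmb and 5416 FPKM for nefma. By spread, elavl3 and elavl4 varied least of the 30 IDs on this list with a median FPKM of at least 1, and snap25a stood at position 8 from the lowest. In a list of glial and other non-neuronal genes, 9 of 40 IDs (22.5%) had an FPKM of at least 1 in all 7 cells, with mbpa, which encodes myelin basic protein, at a median of 12616 FPKM.

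Among genes of the SNARE complex and vesicle release, snap25a had the highest level. Of 69 IDs, 23 (33.3%) had an FPKM of at least 1 in all 7 cells, beside 10% of all features. NSF, the ATPase that takes SNARE complexes apart, had a median of 273 FPKM and a range of 171 to 671 FPKM. Vamp2, the vesicle partner of SNAP-25, was less even, with 129 FPKM in M11 and 0.553 FPKM in M9, and a median of 12.5 FPKM. It was picked for its role after its values were seen.

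The features whose levels most resembled each gene across the 7 cells were found by the Pearson correlation of log2(FPKM + 1). Only Ensembl IDs with an FPKM of at least 1 in all 7 were searched. Snap25b itself did not meet this limit, so features all but absent in some cells, as it was, could not be found. For elavl3 the most alike features included CERS1 (r = 0.98) and CLASP2 (0.97), of 3415 features. For elavl4 they were SEC62 (0.96), rrp8 (0.94) and RPS24 (0.92). For snap25a they were cinp (0.99), si:ch211-40k21.5 (0.99) and MPHOSPH10 (0.98), and for snap25b they were KDM1A (0.99), RNASEH2A (0.98) and RPL19 (0.98). With so few cells, high values were common: 204 features (5.97%) had an r of at least 0.9 with snap25a, 57 (1.67%) with snap25b, 36 (1.05%) with elavl3 and 13 (0.381%) with elavl4. CLASP2, which encodes a protein that binds the ends of microtubules, had a range of 32.1 to 189 FPKM. KDM1A, a histone demethylase, moved with snap25b but over a far narrower range, of 15.2 to 26.8 FPKM.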

How the data were processed

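Single CaD neurons were amplified with SMART-Seq v4 and sequenced by the authors; the submitters' processing notes name HISAT2 2.0.4 and HTSeq 0.9.1, the methods text gives another HTSeq version, and the genome build and annotation are not given in the sources used here. The authors deposited FPKM values, computed from gene length and read counts. Whole reads, lengths and library totals were recovered from ratios of FPKM between libraries; recovered reads added up to 99.87% to 99.95% of the totals, and, tested on simulated data of 12000 features, 8 totals and 99.5% of 6768 features detected in at least 5 libraries were recovered. The detection limit was an FPKM of 1, and the pseudocount on the log2 scale was 1. Main values leave out M1. Replicates are cells, and the number of fish they came from is not given in the sources used here. The p-values ask whether a difference has a like direction across these cells. Where all 7 cells had the same direction, p took its smallest possible value, whatever the size or spread of the differences.

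The genes and lists were chosen with earlier results of these data known. Named genes are the 4 members, their families, slc6a5 and slc32a1, the 3 most alike features of each gene, the 3 highest of each list and the cell type markers; some of these are not reported here. Symbols came from a reference table (29178 of 31901 Ensembl IDs matched); 37 of 41 pan-neuronal, 62 of 65 release and 33 of 37 other-cell genes were found, some under a symbol without the paralog letter. Neither sequences nor coordinates were used here. Alternatives were M1 included, each library left out, other pseudocounts, scalings, limits and sets of features, and, chosen after seeing the data, recovered reads per kilobase. Python 3.11.15, numpy 2.4.6, pandas 2.3.3, scipy 1.17.1 and matplotlib 3.10.9 were used.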

Additional observations from a re-analysis of the deposited data

How the results depend on the processing

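Of 243 alternatives over 23 results, 225 kept their call or moved by less than the spread between cells. Only the log2 differences of the 6 pairs could change sign, and none did. The 225 include the median of snap25b, which ran from 0.178 to 15.1 FPKM across libraries left out, because its spread between cells was wider than that. They also include the level percentile of snap25b, which was 53.6 over the 7 libraries and 91.7 with M1. FPKM rescaled to a sum of 1000000 gave medians of 354 for elavl3, 304 for elavl4 and 1182 for snap25a, and with the highest feature also left out they were 562, 464 and 1712; both scalings raise all levels by construction. Leaving that feature out gave an SD of log2 levels of 0.46 for snap25a and 3.56 for snap25b, and a pseudocount of 0.1 gave 4.32 for snap25b. Across single libraries left out, the SD of elavl3 ran from 0.22 (without M17) to 0.46. Among features with a median of at least 1, the level percentiles were 98.2 for elavl3, 97.9 for elavl4 and 99.6 for snap25a; snap25b, with a median below 1, was not placed there. In the 3 libraries with both genes at an FPKM of at least 1, mean log2 differences were 3.71 for snap25a against snap25b, -1.87 for snap25b against elavl3 and -1.84 for snap25b against elavl4 (exact permutation adjusted p = 0.3 for each, with too few libraries to pass). At limits of 5 and above 0, 10 and 42 IDs of the release list were detected in every cell, in place of 23. The shares of all features at these limits are not given here. No paired analysis was possible because there is only 1 group, so no groups share replicate numbers; genes were compared within libraries. With 7 cells, 1 or 2 reads and an unstated treatment of shared reads limit what can be said of snap25b in M2, M5, M9 and M17.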
